A study of Mus musculus with 21 samples.

Results

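The nuclear genes of the respiratory chain and of its ATP synthase were followed in mouse embryonic stem cells kept alive by different SOX factors. The members were taken by name, as every row of the deposited expression values whose symbol begins with Nduf (a, b, c, s or v), Uqcr, Cox4 to Cox8 or Atp5, or is Sdha, Sdhb, Sdhc or Sdhd. This gave 89 of 16443 genes. Of them, 38 carry the names of complex I subunits, 8 are complex I assembly factors (Ndufaf), 4 belong to complex II, 8 to complex III, 14 to complex IV and 17 to complex V. The rule left out pseudogene names ending in -ps or in -ps with a number. All 89 symbols were found in the GENCODE M21 annotation as protein-coding genes, spread over 19 chromosomes. The rule uses names only.

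The chain sits in the inner mitochondrial membrane. Complex I takes electrons from NADH and complex II from succinate, complex III passes them to cytochrome c, and complex IV hands them to oxygen. Complexes I, III and IV pump protons, and complex V uses the proton gradient to make ATP. Most subunits are coded in the nucleus and a few in the mitochondrial genome, so a complex is built from both. Mouse embryonic stem cells are known to use both glycolysis and respiration, and inhibitors of MEK and GSK3 (2i) are known to move them toward the naive state.

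The 21 RNA-seq libraries came from 2TS22C, mouse embryonic stem cells known for carrying Sox2 as a transgene that doxycycline turns off. The rescue lines were transduced with a lentivirus and treated with doxycycline, and their endogenous SOX2 was silenced. They carried miniSOX (only its name is given), SOX17FNV (FNV), which is engineered from the endoderm factor SOX17, or SOX2 itself. Untransduced 2TS22C cells (NTC), with a wild-type genotype label and no doxycycline listed, were the control, so every contrast with NTC also holds the virus and the drug. The media were serum with LIF (SL) and, for the cells called 2i here, serum and LIF plus 2i. In 2i there were 2 miniSOX, 4 FNV, 4 SOX2 and 3 NTC libraries, and in SL 2 of each. The p21 and p31 libraries are titled as biological replicates numbered 2 and 3, which replicates 1 and 2 are not, and separate cultures are not stated. P-values then measure only how these samples vary, which may be technical variation.

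The libraries came in 2 deposited sets, told apart by titles and organism labels and called waves here. Of these, 12 libraries form the first wave, which has replicates 1 and 2 of FNV, SOX2 and NTC in both media. The second wave holds 9, the 2i libraries named p21 or p31 and every miniSOX library, so in SL miniSOX cannot be compared with another line within a wave. Where 4 values are given for FNV or SOX2 cells in 2i, they are replicates 1 and 2, p21 and p31, and where 3 are given for NTC they are replicates 1 and 2 and p31. The deposited values are whole numbers that the authors had made equal in distribution between libraries, with totals between 1.40443e+07 and 1.40473e+07 and a median of 214 in every library, so depth is unknown. A call here means a limma adjusted p under 0.05 over all 16443 genes, in a model of all 21 libraries that holds the groups and the wave. A log2 change is on the log2(value + 1) scale. Changes of all genes were centred, with medians between -0.04 and 0.03 in every comparison.

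Pluripotency markers (Pou5f1, Nanog, Sox2, Esrrb, Zfp42, Utf1 and Tdgf1) summed to between 28890 and 59163 per library, with the lowest sums, 28890 and 29026, in miniSOX cells in SL. Fibroblast markers summed to at most 312 in any 2i library. In SL they summed to 1813 to 2005 in miniSOX, 973 to 1022 in FNV, 249 to 292 in SOX2 and 519 to 574 in NTC libraries. Trophectoderm markers summed to 2575 to 2636 in miniSOX, 5222 to 7357 in FNV, 812 to 1387 in SOX2 and 1202 to 2665 in NTC libraries in 2i, and to 15760 to 15870, 2315 to 2369, 1508 to 2198 and 9386 to 9433 in the same order in SL. Extraembryonic endoderm markers, 5 measured of 8, summed to 4921 to 5105 in miniSOX, 7075 to 7294 in FNV, 1725 to 3556 in SOX2 and 2628 to 2834 in NTC libraries in 2i, and to 2085 to 2155, 1032 to 1134, 1407 to 1418 and 1244 to 1320 in SL, so in 2i they were highest in FNV and miniSOX cells. The part of these other cell types in the results on the members was not tested. In bulk samples, fewer cells of a type and less RNA per cell cannot be told apart.

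All 89 members entered every fit, with no filter on low values. Across libraries, 84 of 89 had a median value of at least 100, and only Ndufa4l2 was listed at 0 in a library. With each member centred on its own mean over libraries, the median member stood at 0.16 and 0.19 in the miniSOX, at -0.03, -0.05, -0.12 and -0.26 in the FNV, at 0.28, 0.27, -0.07 and -0.17 in the SOX2 libraries in 2i, as log2 deviations. The NTC libraries there had 0.13, 0.08 and -0.22. In SL it stood at -0.02 in both miniSOX libraries, at -0.05 and 0.22 in FNV, at 0.01 and 0.00 in SOX2 and at -0.09 and -0.10 in NTC. In 2i the first-wave libraries of FNV, SOX2 and NTC thus lay above the p21 and p31 libraries of their line. The wave term measured the same gap: 9 members were higher and 44 lower in the second wave than in the first, with a median of -0.32, against 3039 higher and 3154 lower among all genes. Cytosolic ribosomal protein genes showed it too (6 higher and 41 lower of 78, median -0.40). So did citric acid cycle genes (1 and 9 of 13, median -0.29) and pyruvate dehydrogenase genes (2 and 7 of 12, median -0.26). Mitochondrial ribosomal protein genes did not (20 and 22 of 78, median 0.03). Nor did the 13 measured genes of the mitochondrial genome (6 higher and 1 lower, median 0.22).

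**Figure D1:**
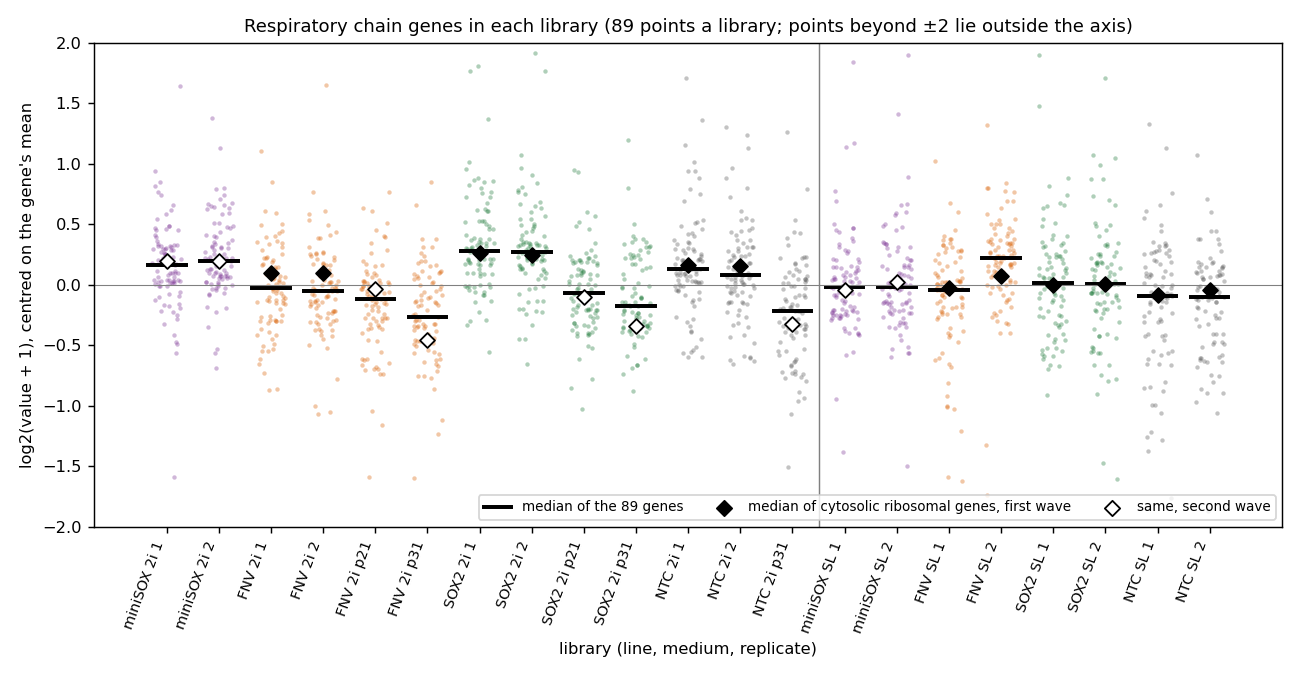
Each point, coloured by line, is 1 of the 89 members in 1 library, as its log2 value less its own mean over the 21 libraries. Points beyond the axis are not shown. Black bars are medians of the members, diamonds are medians of 78 cytosolic ribosomal protein genes, and filled and open diamonds mark the first and second wave. In 2i, SOX2 p21 and p31 have medians of -0.07 and -0.17, while the first-wave SOX2 libraries have 0.28 and 0.27.

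Replicates 1 and 2 of FNV, SOX2 and NTC cells were further apart in SL than in 2i. The median member differed between them by 0.099 (log2) in FNV, 0.080 in SOX2 and 0.062 in NTC cells in 2i, against 0.27, 0.30 and 0.19 in SL, where all genes gave 0.17, 0.17 and 0.12. MiniSOX replicates differed by 0.068 in both media. In 2i, libraries of 1 line in different waves were 0.29 to 0.50 apart. Several small subunits were far apart in SL. Atp5k, the small e subunit of ATP synthase, read 667 and 695 in miniSOX, 11 and 465 in FNV, 328 and 7 in SOX2 and 6 and 50 in NTC libraries, and it was called in no comparison. Another small subunit, Atp5e (epsilon), read only 6 to 32 in any library, with 32 and 21 in miniSOX against 6 and 6 in NTC cells in SL, a log2 change of 1.88 ± 0.39 (limma adjusted p = 0.00394; 1.14 with a pseudocount of 10). The median annotated transcript of a member was 755 bases long, against 2547 for all genes, and 56 members were no longer than 1000 bases; what part of the spread follows length was not tested.

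Rescue lines were set against NTC to ask what a rescue by each factor left different. In 2i, miniSOX cells had 36 members higher and 1 lower, where 14.3% of all genes were higher and 13.5% lower, so 40.4% of members were higher against that background. The median member was 0.39 higher, and 74 of 89 had a positive change. The higher members were 19 of 38 in complex I, 4 of 8 in complex III, 6 of 14 in complex IV, 5 of 17 in complex V and 2 of 8 assembly factors, while 0 of 4 in complex II passed the limma test in either direction. This count rests on the model. Within the second wave alone, with 1 NTC library, 27 members were higher and 0 lower (9.35% and 7.93% of all genes), with a median of 0.45. With no wave term it was 13 higher and 1 lower (9.6% and 9.56%) with a median of 0.20, and with miniSOX placed in the first set and only p21 and p31 libraries in the second it was 21 higher and 9 lower (15.8% and 16.5%) with a median of 0.09. Without either miniSOX library 21 members were higher and 1 lower. Cytosolic ribosomal protein genes had 32 of 78 higher and 0 lower in this contrast, and whether they and the members moved for a shared reason was not tested.

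FNV cells in 2i divided evenly. Of the members 14 were higher and 15 lower against NTC, where 19.7% of all genes were higher and 20.0% lower, so the members' shares (15.7% and 16.9%) lay a little below the background, and their median change was -0.06. Complex III stood on one side, with 4 of 8 higher and 1 lower, and the assembly factors on the other, with 2 of 8 higher and 5 lower. In SOX2 cells in 2i, 17 members were higher and 5 lower, where 14.4% of all genes were higher and 14.3% lower, and the median was 0.13. Complex I had 6 higher and 2 lower, complex III 4 and 1, complex IV 3 and 0, and complex V 2 and 0. Within the first wave the counts were 11 higher and 20 lower in FNV cells (20.9% and 21.5% of all genes) and 14 higher and 3 lower in SOX2 cells (17.5% and 18.4%). With first-wave replicates averaged FNV had 8 higher and 10 lower (12.5% and 11.6% of all genes). Within the second wave, with its single NTC library, they were 6 higher and 4 lower in FNV cells (9.62% and 8.16%) and 4 higher and 0 lower in SOX2 cells (5.35% and 3.99%). These contrasts share their NTC libraries.

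Set directly against SOX2 cells in 2i, FNV cells had 2 members higher and 20 lower, where 12.4% of all genes were higher and 12.9% lower. The median member fell by 0.21 on the log2 scale, and 71 of 89 had a negative change. The lower ones were 7 of 38 in complex I, 2 of 8 assembly factors, 2 of 4 in complex II, 2 of 8 in complex III, 5 of 14 in complex IV and 2 of 17 in complex V. Within the first wave 1 member was higher and 25 were lower (16.9% and 17.1% of all genes, median -0.30). In the second wave, with 2 libraries a line, 0 members were higher and 3 lower (2.63% and 2.44% of all genes). With first-wave replicates averaged 0 were higher and 7 lower (4.68% and 4.70%), and with no wave term 1 and 6 (8.05% and 8.34%). The count fell to 10 (1 higher, 9 lower) without FNV replicate 1, to 13 (2 and 11) without FNV replicate 2, and to 9 (1 and 8) without SOX2 replicate 1 or 2. MiniSOX cells in 2i went the other way against SOX2 cells, with 17 higher and 1 lower (7.32% and 7.57% of all genes), but 4 higher and 0 lower passed without miniSOX replicate 1 and 2 higher and 1 lower without replicate 2, and with only p21 and p31 as the second set the count was 9 higher and 13 lower (12.8% and 14.6%).

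In SL, where groups have 2 libraries each, more members were higher than lower against NTC in all 3 lines. MiniSOX cells had 29 higher and 1 lower (9.44% and 10.2% of all genes, members' median 0.33), FNV cells 23 and 3 (14.2% and 15.8%, median 0.19), and SOX2 cells 13 and 1 (7.35% and 7.63%, median 0.11). Complex I supplied 17 of the 29, 12 of the 23 and 7 of the 13 higher members. Without NTC replicate 1 these counts were 12 and 0, 12 and 3, and 7 and 1. FNV had 10 higher and 4 lower without FNV replicate 2 and 14 and 3 without NTC replicate 2, and miniSOX had 14 and 0 without either of its libraries. With first-wave replicates averaged, which leaves 1 value for each of FNV, SOX2 and NTC in SL, miniSOX had 17 and 0 (2.58% and 2.38% of all genes), FNV 8 and 1 (3.39% and 3.11%) and SOX2 1 and 0 (0.468% and 0.620%). With no wave term the counts were 16 and 3, 7 and 3, and 6 and 0 in the same order. Within the first wave the counts were 20 and 5 in FNV cells (19.5% and 21.6% of all genes) and 12 and 2 in SOX2 cells (13.6% and 14.0%). With only p21 and p31 as the second set, miniSOX in SL had 20 higher and 12 lower (14.3% and 15.7%). The wave term in the miniSOX contrasts in SL comes from 2i libraries alone, since no other line has second-wave libraries in SL. Before any wave term, the median member in SL stood at -0.02 in both miniSOX libraries and at -0.09 and -0.10 in NTC libraries. These are log2 deviations from each member's mean, so much of the miniSOX median of 0.33 rests on that term. FNV against SOX2 in SL gave 9 higher and 7 lower (10.2% and 11.2% of all genes), and 5 and 3 without FNV replicate 2. MiniSOX against SOX2 in SL gave 18 and 3 (10.4% and 11.2%), 10 and 1 without miniSOX replicate 1, and 9 and 1 without replicate 2.

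**Figure D2:**
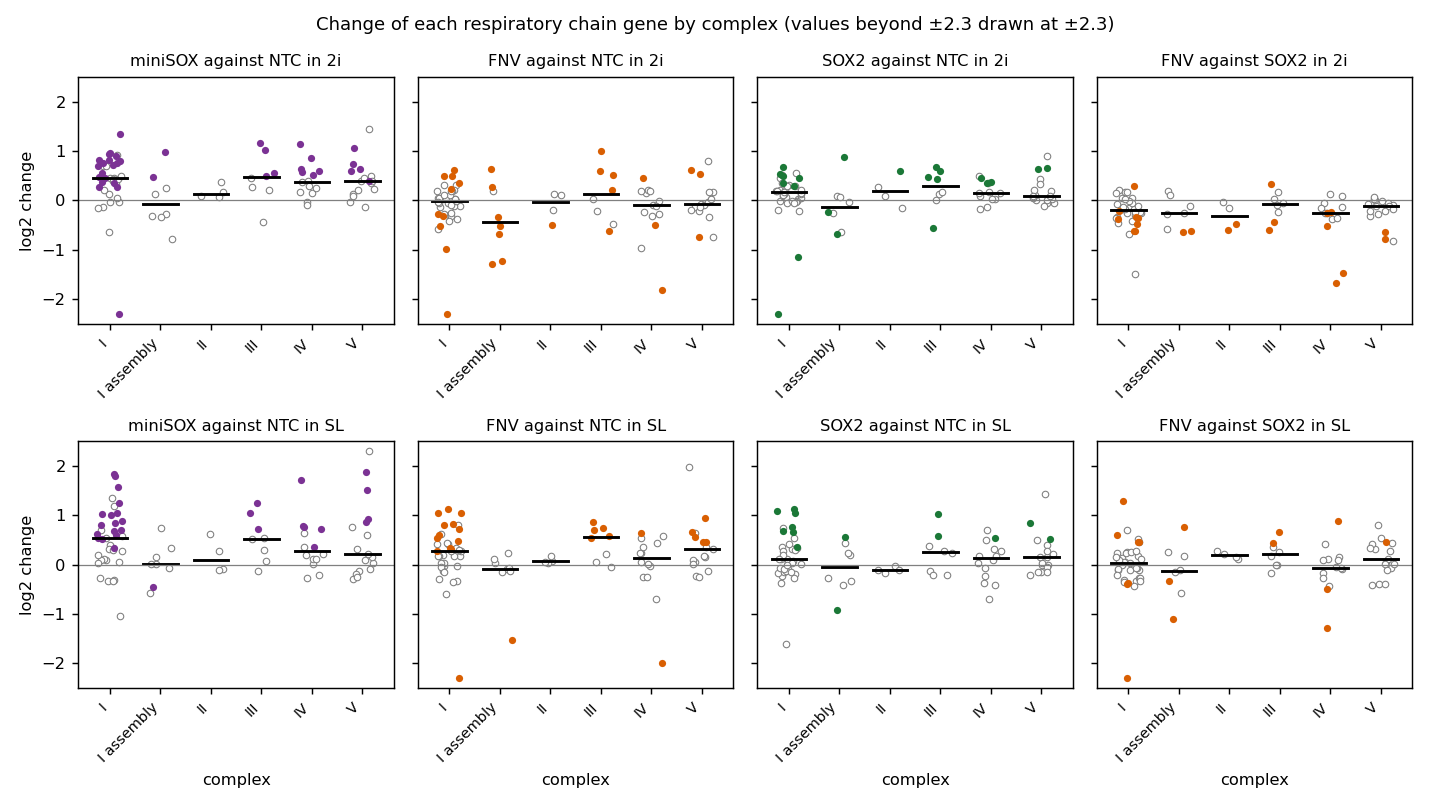
Log2 change of each member by complex, for miniSOX, FNV and SOX2 against NTC and for FNV against SOX2, in 2i (top) and SL (bottom); filled points passed limma at an adjusted p under 0.05, open grey points did not, black bars are medians, and points beyond 2.3 in either direction are drawn at the edge. In 2i, 36 filled points lie above 0 and 1 below for miniSOX against NTC, whereas for FNV against SOX2 2 lie above and 20 below.

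Between media, 2i cells were compared with SL cells of the same line. SOX2 cells had 28 members higher and 8 lower in 2i, where 22.3% of all genes were higher and 22.5% lower, and the median member was 0.20 higher. NTC cells had 20 and 7 (11.9% and 12.8%, median 0.16) and miniSOX cells 21 and 4 (17.0% and 16.4%, median 0.18). FNV cells had 6 and 12 (20.3% and 20.4%, median 0.01), so smaller shares of their members (6.74% and 13.5%) than of all genes were called. With first-wave replicates averaged FNV had 4 and 7 (10.3% and 9.18%) and NTC 9 and 2 (2.76% and 2.36%). Within the first wave the counts were 27 and 9 in SOX2 (24.9% and 25.9% of all genes), 20 and 9 in NTC (17.4% and 18.9%) and 6 and 15 in FNV cells (23.0% and 23.5%), and within the second 18 and 4 in miniSOX cells (14.8% and 14.0%). Cytosolic ribosomal protein genes had 10 of 78 higher and 0 lower in miniSOX, 9 and 2 in FNV, 23 and 9 in SOX2 and 16 and 4 in NTC cells, and among all 1818 genes with transcripts of up to 1000 bases 427 were higher and 230 lower in SOX2 cells, with a median of 0.27; their part in the members' changes was not tested. The NTC count was 7 higher and 3 lower without NTC replicate 1 in SL, 13 and 4 without NTC replicate 1 in 2i and 14 and 3 without NTC replicate 2 in 2i. The miniSOX count lay between 10 and 14 in total without any 1 of its 4 libraries. Cox5a and Ndufa9, 2.25% of members, were higher in 2i in all 4 lines, and 0 members were lower in all 4, where 3.78% of all genes were higher and 3.53% lower. Tested as a difference between media of the change against NTC, 2 members were more positive in 2i and 14 more negative for FNV (13.4% and 12.4% of all genes), 6 and 4 for SOX2 (9.82% and 9.01%), and 7 and 2 for miniSOX (7.71% and 5.96%). The FNV count was 1 and 4 without FNV replicate 2 in SL, 0 and 9 without NTC replicate 1 in SL and 1 and 25 without FNV replicate 1 in SL. The SOX2 count was 4 and 2 without NTC replicate 1 in SL. The miniSOX count was 2 in all without NTC replicate 1 in SL, 14 without either SOX2 library in SL, and 5 without miniSOX replicate 2 in 2i or either miniSOX library in SL.

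**Figure D3:**
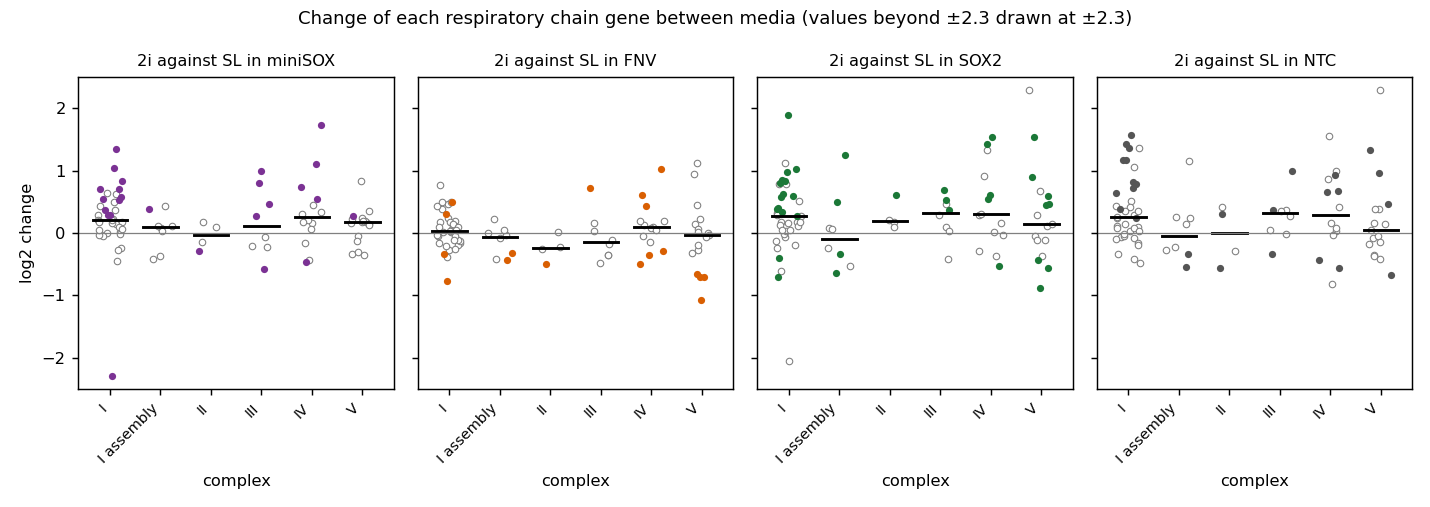
Log2 change of each member in 2i against SL, by complex, in miniSOX, FNV, SOX2 and NTC cells; filled points passed limma at an adjusted p under 0.05, open grey points did not, and black bars are medians. SOX2 cells have 28 filled points above 0 and 8 below, and FNV cells 6 above and 12 below.

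Complex III had a member that was higher in every rescue line in 2i. Uqcrb (ENSMUSG00000021520, chromosome 13, 66900617 to 66905378 on the minus strand of GRCm38), the ubiquinone-binding subunit, read 2384 and 2524 in miniSOX, 2305, 2006, 2305 and 2384 in FNV, 1686, 1616, 1737 and 2137 in SOX2 and 1035, 955 and 1298 in NTC libraries in 2i. Every rescue library lay above every NTC library, and FNV and SOX2 overlapped. By limma the log2 change against NTC was 1.02 ± 0.10 (SE; adjusted p = 7.87e-06) in miniSOX, 1.01 ± 0.08 (adjusted p = 2.62e-07) in FNV and 0.68 ± 0.08 (adjusted p = 3.69e-05) in SOX2 cells. No library left out ended these calls, and the FNV change was 1.11 within the first wave and 0.85 within the second. Within the second wave alone the SOX2 change was 0.57 and not called. In SL Uqcrb read 1277 and 1182, 1326 and 1206, 1251 and 1303, and 836 and 864 in miniSOX, FNV, SOX2 and NTC libraries, again with no NTC library in the range of the rescue lines. Going by limma, the change in SL was 0.57 ± 0.10 (adjusted p = 0.000909) in FNV and 0.59 ± 0.10 (adjusted p = 0.00202) in SOX2 cells. The miniSOX change in SL was not called. Between media Uqcrb was higher in 2i by 0.997 ± 0.10 in miniSOX cells (limma adjusted p = 4.88e-06), by 0.71 ± 0.10 in FNV cells (3.33e-05) and by 0.37 ± 0.10 in SOX2 cells (0.006). In NTC cells the change had the same direction, at 0.28 ± 0.10, and just missed the threshold (limma adjusted p = 0.0501).

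Uqcrc1 (ENSMUSG00000025651, chromosome 9, 108936633 to 108949623, plus strand), a core protein of complex III, read 4524 and 4826 in miniSOX, 4901, 4901, 4732 and 4901 in FNV, 4581, 4454, 4178 and 4087 in SOX2 and 3034, 3134 and 3481 in NTC libraries in 2i. No NTC library reached a rescue library. The limma changes against NTC were 0.55 ± 0.12 (adjusted p = 0.00359) in miniSOX, 0.60 ± 0.09 (0.000132) in FNV and 0.43 ± 0.09 (0.00328) in SOX2 cells, with or without any 1 library, though the SOX2 change was 0.25 and not called within the second wave alone. In SL the order was another: 3325 and 3481 in miniSOX, 5154 and 4409 in FNV, 2635 and 3404 in SOX2 and 3579 and 2987 in NTC libraries. There FNV lay above SOX2 with a log2 change of 0.67 ± 0.12 (limma adjusted p = 0.00136), and SOX2 and NTC overlapped.

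Uqcr10, a small subunit, read 1769 and 1824 in miniSOX, 1616, 1737, 1298 and 1040 in FNV, 1851, 1900, 1201 and 1138 in SOX2 and 1303, 1079 and 825 in NTC libraries in 2i. MiniSOX lay above all NTC libraries, with a log2 change of 1.16 ± 0.13 (limma adjusted p = 2.26e-05) that was 0.77 with no wave term and 0.58 with only p21 and p31 as the second set. FNV and SOX2 each overlapped NTC, and within each line the p21 and p31 libraries were the lower ones. In the model with the wave term, Uqcr10 was also called higher than in NTC in both lines. The change was 0.51 ± 0.10 in FNV (limma adjusted p = 0.00122) and 0.59 ± 0.10 in SOX2 cells (0.000757). Uqcrh, the hinge subunit near cytochrome c1, went against its complex in 2i. It read 729 and 827 in miniSOX, 685, 681, 538 and 790 in FNV, 670, 697, 692 and 730 in SOX2 and 1002, 976 and 1111 in NTC libraries, so all NTC libraries were the highest. The FNV change was -0.63 ± 0.16 (limma adjusted p = 0.00558), not called within either wave alone (-0.53 and -0.77), and the SOX2 change of -0.57 ± 0.16 (0.0155) was lost without NTC p31 (-0.50); the miniSOX change was not called.

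**Figure D4:**
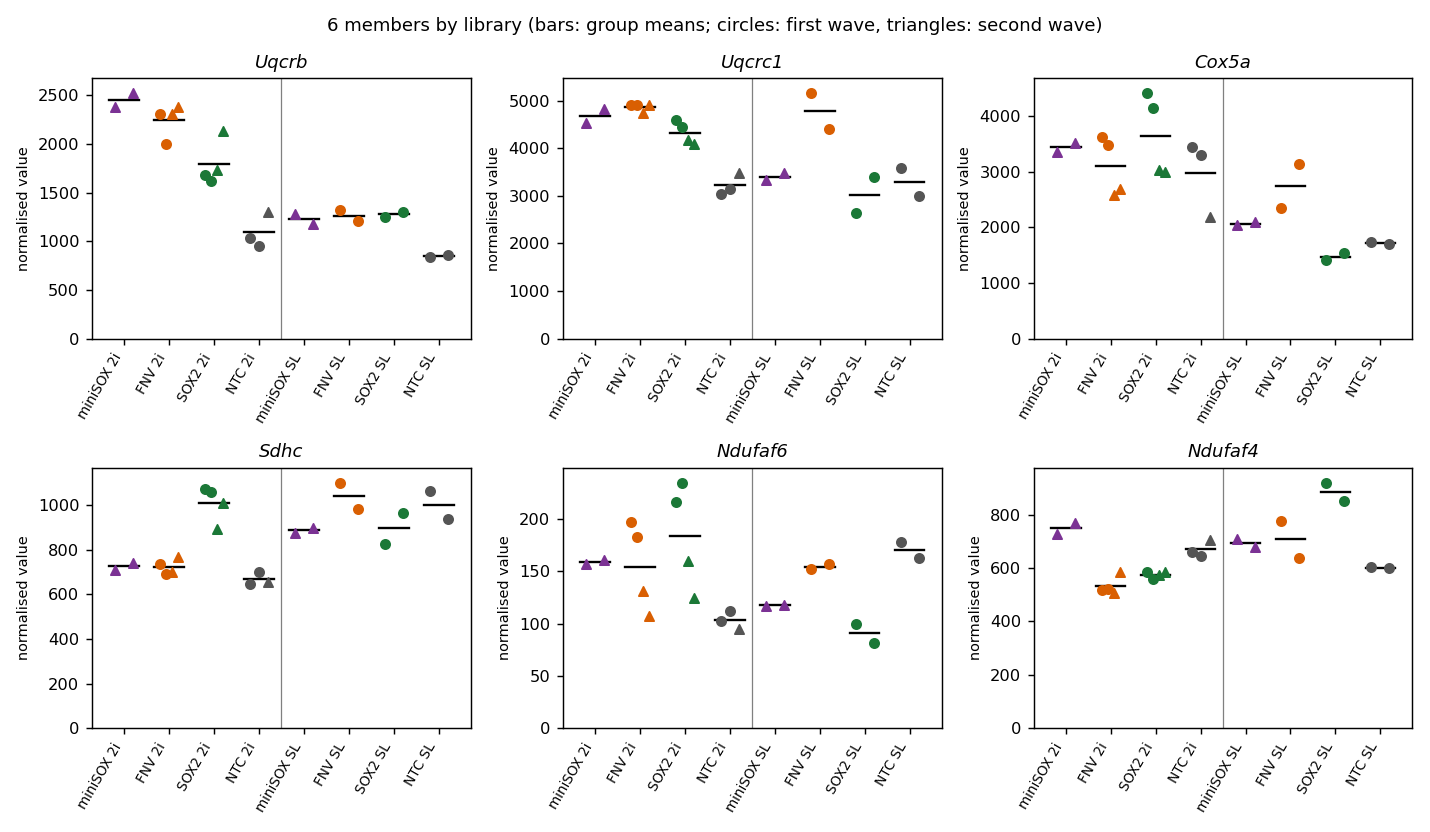
Deposited value per library of Uqcrb, Uqcrc1, Cox5a, Sdhc, Ndufaf6 and Ndufaf4 in miniSOX, FNV, SOX2 and NTC cells in 2i and SL; circles are first-wave and triangles second-wave libraries, and bars are group means. In 2i, Uqcrb lies between 1616 and 2524 in all rescue libraries and between 955 and 1298 in NTC.

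Complex I subunits were divided. Ndufb7, a subunit of the membrane arm, read 1007 and 1065 in miniSOX, 830, 913, 827 and 857 in FNV, 929, 970, 825 and 859 in SOX2 and 534, 531 and 628 in NTC libraries in 2i. All rescue libraries were above all NTC libraries. The limma change was 0.61 ± 0.17 (adjusted p = 0.00983) in FNV and 0.67 ± 0.17 (adjusted p = 0.00844) in SOX2 cells with or without any 1 library, while the miniSOX change of 0.89 ± 0.22 (0.00729) was not called without miniSOX replicate 2 (0.85). Within the second wave alone the FNV and SOX2 changes were both 0.42 and not called. Ndufv3, an accessory subunit of the NADH-oxidizing module, had the opposite order. It read 508 and 507 in miniSOX, 325, 353, 496 and 432 in FNV, 339, 316, 384 and 379 in SOX2 and 955, 920 and 535 in NTC libraries. The NTC libraries were highest, though p31, at 535, lay near the miniSOX libraries and 1 FNV library at 496. The miniSOX change was not called. The limma change was -0.98 ± 0.21 (adjusted p = 0.00203) in FNV and -1.14 ± 0.21 (0.00124) in SOX2 cells; within the second wave it was -0.21 and -0.49 and not called.

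Ndufa9, a subunit of the matrix arm that holds NADPH, was called in 12 of the 14 comparisons, more than any other member, and was higher in each. It read 2464 and 2447 in miniSOX, 2660, 2549, 2413 and 1701 in FNV, 2160, 2253, 1730 and 1452 in SOX2 and 2027, 1851 and 1347 in NTC libraries in 2i, against 1337 and 1415, 1764 and 2054, 1186 and 1310, and 1174 and 1138 in the same lines in SL. Outside FNV no 2i library was as low as an SL library of its line. The change in 2i against SL was 0.84 ± 0.13 (limma adjusted p = 0.000224) in miniSOX, 0.81 ± 0.12 (0.0001) in SOX2 and 0.72 ± 0.12 (0.000796) in NTC cells, and that in FNV cells (0.49 ± 0.12, 0.00459) was lost without FNV replicate 1 in SL (0.38). In SL, FNV cells were above NTC cells by 0.72 ± 0.13 (limma adjusted p = 0.001).

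Ndufab1, the mitochondrial acyl carrier protein that complex I holds as a subunit, read 1471 and 1575 in FNV, 1076 and 1149 in SOX2 and 1068 and 1129 in NTC libraries in SL. FNV was the highest and the other pair overlapped. FNV changed by 0.47 ± 0.09 against NTC (limma adjusted p = 0.000892) and by 0.45 ± 0.09 against SOX2 (0.00191). In 2i it read 1715, 1708, 1119 and 958 in FNV, 1742, 1616, 949 and 1022 in SOX2 and 1179, 1251 and 727 in NTC libraries. These groups overlapped and were each divided by wave, and within each wave the FNV and SOX2 libraries lay above NTC. In the model with the wave term the change against NTC in 2i was called, at 0.50 ± 0.07 in FNV (limma adjusted p = 2.93e-05) and 0.45 ± 0.07 in SOX2 cells (0.000191). In miniSOX libraries Ndufab1 read 1227 and 1351 in 2i and 1014 and 1098 in SL, overlapping NTC in both media. That model also called miniSOX cells higher than NTC in 2i.

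Among other complex I subunits, the differences between media of Ndufb8 in miniSOX and NTC cells and of Ndufv2 in miniSOX cells held without any 1 library. Ndufb8, in the membrane arm, read 2340 and 2190 in miniSOX, 1146, 1138, 1857 and 1609 in FNV, 1621, 1694, 2006 and 1857 in SOX2 and 1471, 1347 and 1422 in NTC libraries in 2i, against 1326 and 1452, 1051 and 1193, 1098 and 1341, and 779 and 752 in SL. Only FNV libraries overlapped between media. The change in 2i against SL was 0.71 ± 0.14 in miniSOX (limma adjusted p = 0.00149) and 0.78 ± 0.13 in NTC cells (0.000721). Ndufv2, an iron-sulfur subunit of the NADH-oxidizing module, read 1971 and 2028 in miniSOX cells in 2i against 1336 and 1405 in SL, a change of 0.54 ± 0.09 (limma adjusted p = 0.000473).

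Ndufa11, which lies where the membrane arm meets complex III in supercomplexes, was lower in 2i in FNV and SOX2 cells. It read 1082, 1336, 883 and 1051 in FNV and 1662, 1851, 1107 and 1110 in SOX2 libraries in 2i, against 1786 and 2635 in FNV and 2716 and 2698 in SOX2 libraries in SL. No library of either line overlapped between media. The change was -0.76 ± 0.14 in FNV (limma adjusted p = 0.000656; -0.48 and still called without FNV replicate 2 in SL) and -0.71 ± 0.14 in SOX2 cells (0.0011). In miniSOX (-0.24, limma adjusted p = 0.284) and NTC cells (-0.41, 0.055) it was not called. Ndufb11, also of the membrane arm, was divided by wave: it read 1775, 1675, 1405 and 625 in FNV, 1792, 1764, 859 and 610 in SOX2 and 1813, 1716 and 531 in NTC libraries in 2i, with each p31 library the lowest of its line.

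Ndufa4l2 had the largest change of any member against NTC. It is a paralog of Ndufa4, known from other work for being raised by hypoxia. Both genes were compared as sequence because reads from near-identical stretches can be shared between paralogs. Over their coding sequences 66.94% of aligned bases were identical, with a longest shared run of 28 bases. The most alike 60 bases are shown from GENCODE M21 transcripts on GRCm38 in coding orientation, with the 7 bases that differ in capitals.
Ndufa4l2: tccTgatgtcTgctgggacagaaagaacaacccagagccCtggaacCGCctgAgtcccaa
Ndufa4: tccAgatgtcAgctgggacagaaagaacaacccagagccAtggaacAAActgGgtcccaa
Ndufa4l2 (ENSMUSG00000040280, chromosome 10, 127514967 to 127517154, plus strand) read 4 and 0 in miniSOX, 2, 2, 4 and 1 in FNV, 15, 10, 15 and 1 in SOX2 and 122, 223 and 25 in NTC libraries in 2i. In SL it read 32 and 39, 4 and 5, 55 and 48, and 104 and 245 in the same lines. Every rescue library was below every NTC library of its medium. In SL, though, the SOX2 change against NTC of -1.62 ± 0.96 (limma adjusted p = 0.28) and the miniSOX change were not called. In 2i the limma change was -4.59 ± 0.96 (adjusted p = 0.00261) in miniSOX, -4.68 ± 0.74 (0.000156) in FNV and -3.19 ± 0.74 (0.00517) in SOX2 cells, and in SL -4.87 ± 0.96 (0.00157) in FNV cells. These calls did not depend on any 1 library, but within the second wave, with its single NTC library at 25, the 2i changes were -3.54, -3.04 and -2.20 and not called. A pseudocount of 10 in place of 1 gave -2.63 in miniSOX and -2.95 in FNV cells in 2i.

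Ndufa4 (ENSMUSG00000029632, chromosome 6, 11900292 to 11907497, minus strand), named for complex I but since assigned to complex IV, did not follow its paralog. It read 1737 and 1715 in miniSOX, 1686, 1502, 992 and 1149 in FNV, 2092, 2054, 1215 and 1370 in SOX2 and 1616, 1632 and 984 in NTC libraries in 2i, where the last 3 groups overlapped. In SL it read 1662 and 1857, 1674 and 2074, 2565 and 2267, and 1509 and 1475. SOX2 cells in SL were the highest, at 0.69 ± 0.11 above NTC (limma adjusted p = 0.000856). FNV and miniSOX cells were also called higher than NTC in SL. The FNV change there was 0.32 ± 0.11 (limma adjusted p = 0.0384) and was lost without FNV replicate 2 in SL (0.17). In 2i, despite the overlap, the SOX2 change against NTC was called in the model with the wave term, at 0.36 ± 0.08 (limma adjusted p = 0.00551).

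Assembly factors help to build complex I and are not part of it. Ndufaf6 (ENSMUSG00000050323, chromosome 4, 11051045 to 11076205, minus strand), which acts early in assembly, changed direction with the medium. In 2i it read 157 and 161 in miniSOX, 197, 183, 131 and 107 in FNV, 216, 235, 160 and 124 in SOX2 and 102, 112 and 95 in NTC libraries, and in SL 117 and 118, 152 and 157, 100 and 81, and 178 and 163. NTC was the lowest in 2i, overlapping only FNV, and the highest in SL. Against NTC, SOX2 cells were higher in 2i by 0.88 ± 0.13 (limma adjusted p = 0.000226) and changed by -0.91 ± 0.17 in SL (0.00267). The SOX2 change in 2i was 0.56 and not called within the second wave alone. The difference between the media was 1.79 ± 0.21 (limma adjusted p = 8.87e-05), called under every alternative that gave a value.

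Ndufaf4 (ENSMUSG00000028261, chromosome 4, 24898083 to 24905001, plus strand) had the reverse order. It read 728 and 769 in miniSOX, 516, 521, 505 and 583 in FNV, 586, 559, 572 and 583 in SOX2 and 661, 646 and 706 in NTC libraries in 2i, and 708 and 679, 777 and 637, 920 and 850, and 602 and 598 in SL. FNV and SOX2 libraries lay below NTC in 2i and above it in SL. The FNV change against NTC in SL was not called (0.23 ± 0.09, limma adjusted p = 0.0759). The SOX2 change against NTC in 2i was -0.23 ± 0.07 (limma adjusted p = 0.0249). That call was lost without any 1 of NTC replicate 1, NTC p31, SOX2 replicate 2 or SOX2 p21. SOX2 cells were lower in 2i than in SL by a log2 change of -0.65 ± 0.08 (limma adjusted p = 2.87e-05) and FNV cells by -0.44 ± 0.08 (0.000814). The difference between media of the change against NTC was -0.79 ± 0.12 in SOX2 (limma adjusted p = 0.000459) and -0.58 ± 0.12 in FNV cells (0.00223).

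Ndufaf5 (ENSMUSG00000027384, chromosome 2, 140170649 to 140203689, plus strand), an enzyme that modifies the subunit Ndufs7, set FNV cells apart in 2i. It read 176 and 180 in miniSOX, 141, 144, 141 and 127 in FNV, 204, 209, 239 and 217 in SOX2 and 220, 215 and 227 in NTC libraries. The FNV libraries were below all others there, and SOX2 and NTC overlapped. FNV changed by -0.68 ± 0.10 against NTC (limma adjusted p = 0.0001) and by -0.65 ± 0.09 against SOX2 (0.000158), past the threshold in all settings tried. Ndufaf3, another early factor, read 79 and 72 in FNV, 134 and 201 in SOX2 and 241 and 201 in NTC libraries in SL, a change of -1.53 ± 0.27 in FNV against NTC (limma adjusted p = 0.000741).

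Complex II is the smallest set and an enzyme of the citric acid cycle as well. Its clearest differences were in Sdhc. Sdhc (ENSMUSG00000058076, chromosome 1, 171127165 to 171150603, minus strand), a membrane anchor, read 712 and 743 in miniSOX, 738, 692, 700 and 769 in FNV, 1076, 1061, 896 and 1010 in SOX2 and 645, 702 and 657 in NTC libraries in 2i. SOX2 cells were above every other library in 2i. They exceeded NTC by 0.60 ± 0.08 (limma adjusted p = 8.54e-05; 0.67 within the first wave and 0.53 within the second), and FNV cells changed by -0.48 ± 0.07 against them (0.000256), a call lost within the second wave alone (-0.37). In SL it read 877 and 898, 1103 and 984, 827 and 966, and 1065 and 937, where SOX2 overlapped miniSOX and NTC, FNV overlapped NTC, and the other pairs of lines were apart. Sdhc was lower in 2i than in SL in FNV cells (-0.50 ± 0.09, limma adjusted p = 0.0007) and in NTC cells (-0.56 ± 0.10, 0.000757). In miniSOX cells it was -0.29 ± 0.10 (limma adjusted p = 0.0446), a call lost without any 1 of the miniSOX libraries (-0.32 to -0.26) and without any 1 of 5 first-wave libraries in 2i, NTC replicate 1 or 2, FNV replicate 1 or SOX2 replicate 1 or 2 (-0.29 in each). It was not called in SOX2 cells, and the change of SOX2 against NTC differed between media by 0.76 ± 0.13 (0.00123).

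The other complex II genes were less clear. Sdha, the flavoprotein, read 2799 and 2818 in miniSOX, 2429 to 2565 in FNV, 2054 to 2987 in SOX2 and 2601 to 3134 in NTC libraries in 2i, and 2199 to 2761 over all SL libraries. Sdhb, the iron-sulfur protein, read 836 to 1525 in 2i and 1032 to 1516 in SL and was called in no comparison. Sdhd, the second anchor, read 864 and 1018, 984, 955, 663 and 735, 1880, 2027, 825 and 769, and 1385, 1395 and 1075 in miniSOX, FNV, SOX2 and NTC libraries in 2i, where the first-wave SOX2 libraries stood far above SOX2 p21 and p31.

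In complex IV, 1 subunit was higher in 2i in all 4 lines. Cox5a (ENSMUSG00000000088, chromosome 9, 57521274 to 57532426, plus strand), a subunit on the matrix side, read 3358 and 3514 in miniSOX, 3619, 3481, 2580 and 2697 in FNV, 4411, 4138, 3035 and 2989 in SOX2 and 3439, 3301 and 2191 in NTC libraries in 2i. In SL it read 2038 and 2092, 2340 and 3135, 1411 and 1531, and 1742 and 1709. Only FNV libraries overlapped between media. The change in 2i against SL was 0.73 ± 0.10 in miniSOX (limma adjusted p = 8.43e-05), 1.54 ± 0.10 in SOX2 (2.76e-08) and 0.93 ± 0.10 in NTC cells (1.15e-05), none of which was lost in any setting. In FNV cells it was 0.43 ± 0.10 (0.0023) and was lost without FNV replicate 1 in SL (0.22). In SL, FNV cells were above SOX2 cells by 0.88 ± 0.10 (limma adjusted p = 5.59e-05) and above NTC cells by 0.65 ± 0.10 (0.000356).

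Cox6c, a small membrane subunit, moved the other way between media. It read 2492, 2373, 1700 and 1563 in SOX2 cells in 2i against 3375 and 3357 in SL, with no overlap and a change of -0.53 ± 0.09 (limma adjusted p = 0.000302). In SL its other values were 2054 and 2267 in miniSOX cells, 2492 and 2295 in FNV cells and 2446 and 2190 in NTC cells, so SOX2 cells were apart, 0.54 ± 0.10 above NTC (limma adjusted p = 0.00252). Cox4i1, the largest nuclear subunit, read 8734 and 8734 in miniSOX, 6554, 6869, 7795 and 8024 in FNV, 5573, 5573, 8269 and 8466 in SOX2 and 4733, 4524 and 6128 in NTC libraries in 2i. MiniSOX and FNV lay above all NTC libraries, with changes of 0.51 ± 0.12 (limma adjusted p = 0.00681) and 0.45 ± 0.09 (0.00152), the first 0.92 with only p21 and p31 as the second set. Here p21 and p31 were the higher libraries, against the direction of most members. Cox7b, another small subunit, read 1060, 1049, 819 and 949 in FNV cells, against 1647, 1616 and 1103 in NTC cells in 2i, a change of -0.49 ± 0.13 (limma adjusted p = 0.00718) that was lost within the second wave alone (-0.32). In SL it read 1332 and 1953 in FNV cells, against 1055 and 1347 in NTC cells, and the FNV change differed between media by -0.93 ± 0.21 (limma adjusted p = 0.00496).

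Complex IV also has isoforms tied to tissues: Cox7a1 is known from heart and muscle, and Cox6b2 and Cox7b2 from testis. Cox7a1 and its usual form Cox7a2 shared 63.71% of aligned coding bases and a longest run of 12 bases. Their most alike 60 bases are shown from GENCODE M21 in coding orientation, with the 14 differing bases in capitals.
Cox7a1: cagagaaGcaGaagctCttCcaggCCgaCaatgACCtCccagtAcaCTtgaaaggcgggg
Cox7a2: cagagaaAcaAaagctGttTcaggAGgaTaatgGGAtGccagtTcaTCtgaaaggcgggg
Cox7a1 (ENSMUSG00000074218, chromosome 7, 30184144 to 30186078, plus strand) read 67 and 62 in miniSOX, 21, 19, 23 and 21 in FNV, 80, 77, 76 and 50 in SOX2 and 130, 98 and 41 in NTC libraries in 2i. The FNV libraries were the lowest, apart from every other library in that medium. FNV changed by -1.68 ± 0.25 against SOX2 (limma adjusted p = 0.00021) and by -1.82 ± 0.27 against NTC (0.000102), the second being -0.87 and not called within the second wave alone. In SL it read 32 and 27, 12 and 11, 29 and 30, and 62 and 38, again lowest in FNV, at -1.99 ± 0.36 against NTC (limma adjusted p = 0.000798). Cox7a2 (ENSMUSG00000032330, chromosome 9, 79755361 to 79759878, minus strand) read 466 and 515, 412, 315, 281 and 362, 467, 441, 403 and 436, and 403, 411 and 436 in 2i, and 637 and 688, 160 and 636, 258 and 221, and 186 and 241 in SL. Its changes in FNV cells against SOX2 and against NTC cells were not called.

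Cox6b2 read 157 and 264 in miniSOX, 113, 127, 218 and 54 in FNV, 583, 566, 247 and 123 in SOX2 and 336, 365 and 132 in NTC libraries in 2i, and 58 to 268 over all SL libraries. Its highest values were in first-wave SOX2 libraries, and all pairs of lines overlapped in 2i. FNV against SOX2 in 2i was -1.46 ± 0.43 (limma adjusted p = 0.0219), lost without any 1 of FNV replicate 1, 2 or p31 or SOX2 replicate 1, 2 or p21 (-1.40 to -1.26). MiniSOX cells in 2i against SL were 1.74 ± 0.61 (limma adjusted p = 0.0403), lost without any 1 miniSOX library (1.36 to 2.11) or NTC replicate 1 in SL (1.74). Cox7b2 read 381 to 627 in 2i and 419 to 585 in SL and was called in no comparison.

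**Figure D5:**
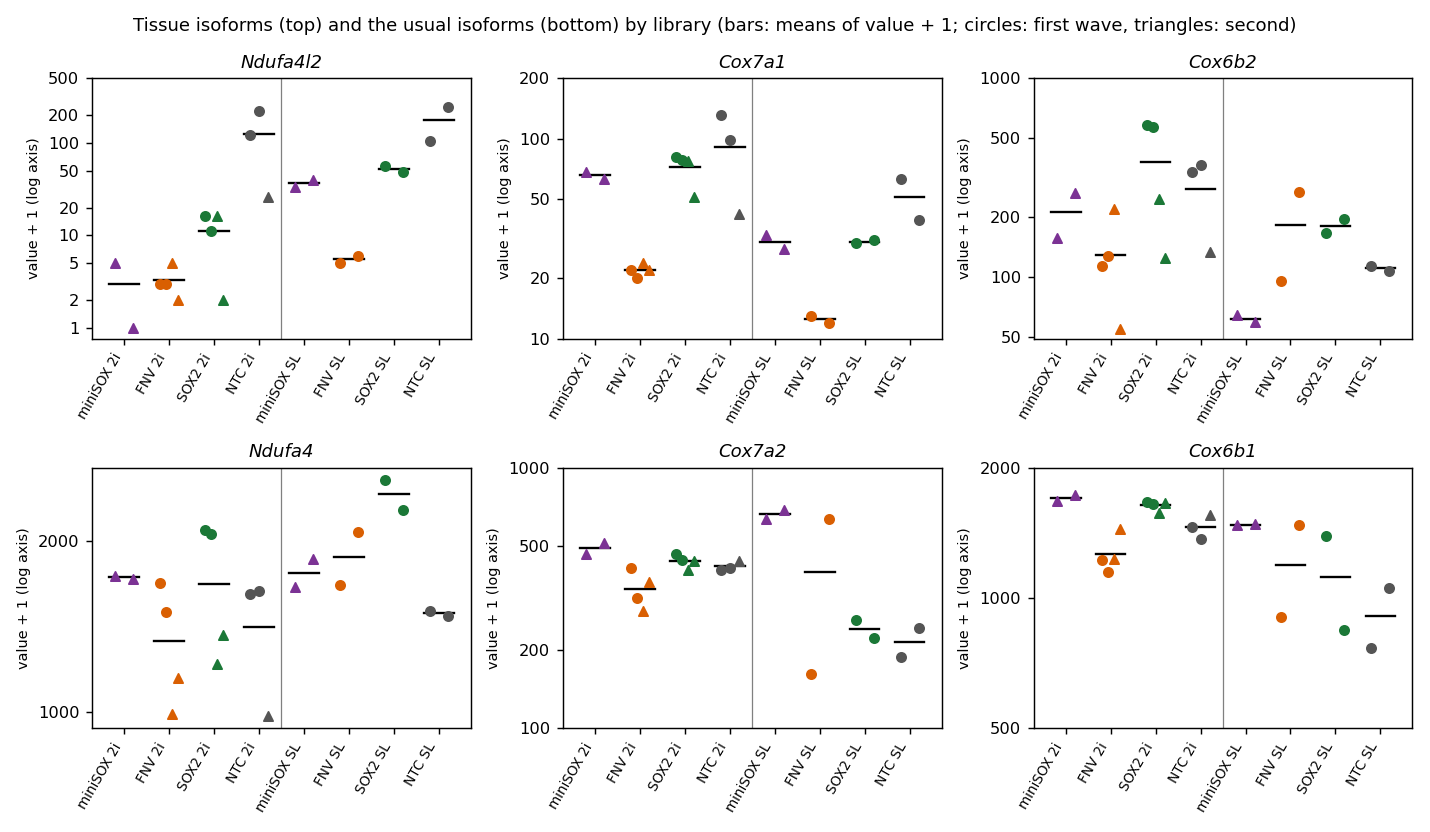
Deposited value plus 1, on a log axis, of Ndufa4l2, Cox7a1 and Cox6b2 (top) and of Ndufa4, Cox7a2 and Cox6b1 (bottom) per library in miniSOX, FNV, SOX2 and NTC cells in 2i and SL. Ndufa4l2 lies between 0 and 15 in the rescue libraries in 2i and between 25 and 223 in NTC, and Cox7a1 between 19 and 23 in FNV.

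In complex V, the catalytic core was divided. Atp5b (beta) and Atp5c1 (gamma) were called in no comparison, with values of 19697 to 40741 and 3185 to 4581. Atp5a1 (alpha) read 14822 and 16427 in miniSOX, 13693, 14822, 11820 and 16427 in FNV, 14822, 14822, 14822 and 16427 in SOX2 and 8736, 8736 and 11389 in NTC libraries in 2i. All rescue libraries were above NTC, by 0.63 ± 0.14 (limma adjusted p = 0.00351), 0.54 ± 0.11 (0.000916) and 0.65 ± 0.11 (0.000471) in miniSOX, FNV and SOX2 cells, or by 0.45, 0.29 and 0.45 and not called within the second wave alone. Its repeated values come from the equal distributions, in which high ranks hold the same number in many libraries.

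Atp5l (ENSMUSG00000038717, chromosome 9, 44912557 to 44920742, minus strand), subunit g of the membrane part, was higher in all rescue lines in both media. It read 1621 and 1553 in miniSOX, 1774, 1870, 1370 and 1496 in FNV, 2006, 1900, 1272 and 1482 in SOX2 and 1110, 1028 and 1138 in NTC libraries in 2i, and 1997 and 1997, 1857 and 2240, 1870 and 1870, and 1326 and 1265 in SL. No NTC library reached a rescue library in either medium. By limma the changes were 0.74 ± 0.14 (adjusted p = 0.00102), 0.61 ± 0.10 (0.000294) and 0.63 ± 0.10 (0.000498) in 2i, in the order miniSOX, FNV and SOX2, and within the second wave alone 0.48 (called), 0.33 and 0.27 (not called). In SL they were 0.92 ± 0.16 (limma adjusted p = 0.00119), 0.65 ± 0.14 (0.00232) and 0.53 ± 0.14 (0.0172), and the last was lost without any 1 of the SOX2 or NTC libraries in SL, at 0.50 to 0.56.

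Among other small subunits of the stalk and membrane part, Atp5j and Atp5mpl were lower in 2i than in SL, and Atp5j2 was lower than in NTC. Against NTC in SL, FNV cells were higher for Atp5j (0.47 ± 0.13, limma adjusted p = 0.0168) and Atp5mpl (0.56 ± 0.19, 0.0361). Both of these calls were lost without at least 1 library. SOX2 cells in SL were also higher than NTC for Atp5j (0.85 ± 0.13, limma adjusted p = 0.000854). Atp5j, coupling factor 6, read 1055, 883, 774 and 823 in FNV and 1133, 1037, 987 and 927 in SOX2 cells in 2i, against 1730 and 1438 and 1804 and 2351 in the same lines in SL. No 2i library reached an SL library of its line. The change was -0.71 ± 0.12 (limma adjusted p = 0.000334) in FNV and -0.88 ± 0.12 (5.43e-05) in SOX2 cells. Atp5mpl read 407, 511, 412 and 482 in FNV cells in 2i against 1162 and 789 in SL, a change of -1.07 ± 0.17 (limma adjusted p = 0.000188). It was also lower in 2i in NTC cells (-0.67 ± 0.18, limma adjusted p = 0.0127) and SOX2 cells (-0.56 ± 0.17, 0.0171). Both of those calls were lost without at least 1 library, and the miniSOX change (-0.30 ± 0.19) was not called. Atp5j2, subunit f, read 1138, 1375, 785 and 958 in FNV cells, against 1981, 1900 and 1632 in NTC cells in 2i, with no overlap and a change of -0.74 ± 0.14 (limma adjusted p = 0.000595).

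Subunit c, which forms the rotor ring, is made from 3 genes that are known to code for the same mature protein behind different leader peptides. The last 78 codons of Atp5g1, Atp5g2 and Atp5g3 translated identically, while the bases differed. A stretch of 90 bases near the end of the coding sequence is shown from GENCODE M21 in coding orientation, with capitals at the 24 positions where the 3 genes are not all alike.
Atp5g1: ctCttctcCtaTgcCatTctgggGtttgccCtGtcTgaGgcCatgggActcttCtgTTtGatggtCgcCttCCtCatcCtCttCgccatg
Atp5g2: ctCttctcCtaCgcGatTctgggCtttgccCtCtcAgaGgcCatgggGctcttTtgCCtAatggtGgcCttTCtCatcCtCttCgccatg
Atp5g3: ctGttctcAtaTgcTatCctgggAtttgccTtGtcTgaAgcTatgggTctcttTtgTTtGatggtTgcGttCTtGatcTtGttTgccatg
The 3 are on chromosomes 11, 15 and 2, and the longest run of coding bases shared by any pair was 21. Atp5g1 read 1162 to 2065 over all libraries. Atp5g3 read 3014, 2897, 2295 and 2493 in SOX2 cells in 2i against 1395 and 754 in SL, a change of 1.53 ± 0.32 (limma adjusted p = 0.0014). In NTC cells it read 2818, 2838 and 2374 in 2i against 862 and 1509 in SL, and the change of 1.33 ± 0.33 (0.00855) was lost without NTC replicate 1 in SL (0.93). The other lines read 2761 and 3160 in miniSOX and 2677, 2351, 1769 and 2099 in FNV libraries in 2i, and 2601 and 2601 in miniSOX and 1107 and 2897 in FNV libraries in SL. Atp5g2 ranged from 26 to 639, was as far apart as 639 and 87 in the SOX2 libraries in SL, and was called in no comparison.

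Of the 89 members, 77 (86.5%) were called in at least 1 of the 14 comparisons between groups, where 81.7% of all genes were, and 12 in none: Atp5b, Atp5c1, Atp5g2, Atp5k, Atp5s, Cox7b2, Cox8a, Ndufa12, Ndufa8, Ndufb3, Ndufs7 and Sdhb. They include subunits with steady values, such as Ndufb3 at 280 to 501, and subunits with wide spread, such as Atp5k.

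Genes that work beside the chain did not all move with it. Against NTC in 2i, 14.3% of all genes were higher and 13.5% lower in miniSOX cells. The shares were 19.7% and 20.0% in FNV and 14.4% and 14.3% in SOX2 cells, and several counts below lie near them. The 13 measured genes of the mitochondrial genome, which code for the other subunits, had 3 higher and 1 lower in miniSOX, 4 and 1 in FNV and 2 and 1 in SOX2 cells against NTC in 2i. Of 42 measured genes for cytochrome c and for assembly of complexes II to V, 10 were higher and 3 lower, 7 and 8, and 9 and 6. Citric acid cycle genes had 6 of 13 higher and 0 lower, 7 and 1, and 4 and 0. Mitochondrial ribosomal protein genes had 14 of 78 higher and 1 lower, 5 and 17, and 7 and 6, and regulators of mitochondrial biogenesis had 1 of 21 higher and 8 lower, 2 and 10, and 1 and 7.

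Glycolysis genes were lower in the same contrasts, 12 of 17 in miniSOX, 13 in FNV and 12 in SOX2 cells, with 1, 1 and 2 higher and medians of -0.99, -1.22 and -0.60, whereas the members' medians were 0.39, -0.06 and 0.13. Pyruvate dehydrogenase genes, which join glycolysis to the cycle, had 3 of 12 higher and 4 lower, 3 and 3, and 5 and 3. The shares of all genes are those just given for these contrasts. Pdk1, a kinase that inhibits pyruvate dehydrogenase, read 392 and 396 in miniSOX, 450, 518, 431 and 264 in FNV, 508, 493, 535 and 444 in SOX2 and 2621, 2621 and 1774 in NTC libraries in 2i. No rescue library came near an NTC library. The limma change was -2.31 ± 0.19 (adjusted p = 9.5e-07), -2.45 ± 0.14 (1.37e-08) and -2.16 ± 0.14 (1.85e-07). Pdp2, a phosphatase that restores the enzyme's activity, read 2429 and 2492 in miniSOX, 2818, 2659, 3536 and 3056 in FNV, 1286, 1363, 1804 and 1900 in SOX2 and 628, 593 and 1106 in NTC libraries in 2i. It was higher by 1.39 ± 0.13 (limma adjusted p = 3.69e-06), 1.93 ± 0.10 (5.22e-09) and 0.99 ± 0.10 (1.06e-05). These calls were not lost in any setting.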

How the data were processed

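RNA was taken from 2TS22C mouse embryonic stem cells with Trizol, selected on oligo(dT) beads and primed with random hexamers, per the labels' protocols. RSEM, Bowtie2 2.0 and the build mm10 are named in the submitters' processing notes; strand use in counting is not given there. The deposited values form 1 table of 16443 genes. They are treated as a score, because the authors deposited whole numbers that they had normalized between libraries by a method that the sources leave unnamed. The sorted values of any 2 libraries differed by at most 3, and 66.3% of ranks were identical in all of them, so depth is unknown and no counting interval was computed. Whether values are per length is not known, so levels were not compared between genes. No column was left out for lack of a sample. The p21 and p31 columns could be given only a group.

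Members were matched by name, and members, gene lists and tests were chosen with earlier results of these data known. Values were fitted as log2(value + 1) with limma 3.58.1 in R 4.3.3 (trend and robust variance, group and wave as terms, 12 residual degrees of freedom), with Benjamini-Hochberg adjustment over all 16443 genes and a threshold of 0.05. SE is the standard error of the fitted change. The same code was tested on simulated data. Counts of members stand beside the share of all genes called. Named were up to 5 increases and 5 decreases per comparison among called members without overlap and with 5 or more as the higher group's mean, isoforms with their usual partner, the Sdh genes and the 3 most often called members of each complex; for the other lists, counts and the leading genes are given. Atp5k, Ndufb3, Sucla2 between media and the subunit c genes were added after their values were seen.

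Alternatives were pseudocounts of 0.1 and 10, a minimum mean of 50, median centring, no wave term, each wave alone, first-wave replicates averaged, only the groups compared, a replicate block and each library left out. A second set made of p21 and p31 libraries only was added after seeing the data. Sequences and coordinates come from GENCODE M21 on GRCm38, read with Biopython 1.88; Python 3.11.15, pandas 2.3.3 and matplotlib 3.10.9 were used for the rest.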

Additional observations from a re-analysis of the deposited data

Results flagged for a closer look

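Among groups of 4 libraries, 100 pairs of a named gene and a group were examined for a library whose gap to its nearest neighbour was large against the group's range, and 4 passed; chance gives about 1 in 20. In SOX2 cells in 2i, p31 stood apart for Atp5a1, at 16427 where the others each read 14822, and for Cox7a1, at 50 where the others read 76 to 80. In FNV cells in 2i, p31 stood apart for Ndufaf8 at 29, and p21 for Uqcrc1 at 4732, where the others each read 4901. For Atp5a1 and Uqcrc1 the other 3 values are tied, so any gap passes, and nothing is read from these.

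The change against NTC differed between 2i and SL by limma's test for 9 members in miniSOX, 16 in FNV and 10 in SOX2 cells. Of these 35 calls, 10 held without any 1 library and 25 were lost without at least 1, 20 of them without NTC replicate 1 in SL. A positive difference is a more positive change in 2i. In SOX2 cells the log2 difference that held was 1.79 for Ndufaf6, -0.79 for Ndufaf4, 0.76 for Sdhc, -0.83 for Atp5j and 0.61 for Cox5a. In FNV cells it was -0.58 for Ndufaf4, -0.55 for Ndufv2 and -0.93 for Cox7b. In miniSOX cells it was 0.72 both for Uqcrb and for Cox4i1.

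The others were lost without at least 1 library. In SOX2 cells they were 0.43 for Ndufab1, 0.65 for Atp5a1, 0.56 for Uqcrc1, -1.31 for Ndufb10 and -0.79 for Uqcrh. In FNV cells they were -1.34 for Uqcr11 and for Ndufa1, -0.66 for Atp5j, -0.50 for Cox5a, 0.77 for Ndufaf6, -1.04 for Ndufs6, -0.58 for Ndufaf5, -1.20 for Ndufb10, 0.44 for Uqcrb, -0.85 for Uqcrh, -1.28 for Atp5e, -0.61 for Ndufb8 and -0.65 for Ndufaf2. In miniSOX cells they were 0.97 for Ndufaf6, -0.88 for Cox7b, 0.72 for Atp5a1, -0.95 for Uqcrh, 0.78 for Ndufs8, 0.54 for Ndufv1 and 0.61 for Uqcrc2.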

How the results depend on the processing

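Of 428 changes of named genes, 225 passed the threshold. A pseudocount of 0.1, one of 10, a minimum mean of 50 and median centring ended at most 4 calls each. With no wave term 96 calls were lost, with first-wave replicates averaged 100, in the second wave alone 61, with only the groups compared 50 and with a replicate block 34; averaging and single waves leave fewer samples. What the wave is was not tested: in SL it cannot be told apart from miniSOX. No expression depth is known, so the precision of low genes such as Ndufa4l2 rests on replicates.

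Counts of members called moved by over 1.5 times as follows. With no wave term, in 2i, SOX2 against NTC gave 10, FNV against NTC 18, miniSOX against NTC 14, FNV against SOX2 7 and miniSOX against SOX2 5; in SL the same comparisons gave 6, 10, 19, 5 and 11. Between media it gave 11 in miniSOX, 22 in SOX2 and 14 in NTC cells, and for differences between media 7 in FNV and 3 in miniSOX cells. The second wave alone gave, in 2i, 4 for SOX2 against NTC, 10 for FNV against NTC, 3 for FNV against SOX2 and 8 for miniSOX against SOX2. With first-wave replicates averaged, counts in 2i were 18 for FNV against NTC, 7 for FNV against SOX2 and 5 for miniSOX against SOX2, and in SL 1 for SOX2, 9 for FNV and 17 for miniSOX against NTC, 3 for FNV against SOX2 and 10 for miniSOX against SOX2. The same setting gave 11 between media in FNV and 11 in NTC cells, and 1, 2 and 3 for differences between media in SOX2, FNV and miniSOX cells. With only the groups compared, miniSOX in 2i gave 58 against NTC and 38 against SOX2, the SL comparisons gave 6 for SOX2 against NTC, 11 for FNV against NTC and 4 for FNV against SOX2, and the media gave 8 in FNV and 53 in miniSOX cells.

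Replicate numbers were not taken as pairing the samples: of 28 pairs of groups, 0 had a correlation of same-numbered deviations over 0.1 (-0.0917 to 0.0858). A fit with the replicate number as a block gave 29 members (9 higher, 20 lower) for miniSOX against SOX2 in 2i and 14 for the miniSOX difference between media, and the other counts stayed within 1.5 times.

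Leaving out 1 library gave, in 2i, 18 to 29 members for SOX2 against NTC, 22 to 30 for FNV against NTC, 22 to 43 for miniSOX against NTC, 9 to 28 for FNV against SOX2 and 3 to 24 for miniSOX against SOX2. In SL the ranges were 8 to 17, 14 to 28, 12 to 35, 8 to 19 and 10 to 27 in the same order. Between media they were 10 to 28 in miniSOX, 14 to 20 in FNV, 25 to 43 in SOX2 and 10 to 33 in NTC cells, and for differences between media 2 to 14 in miniSOX, 5 to 26 in FNV and 6 to 15 in SOX2 cells.

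Some called changes of miniSOX cells changed sign with how the wave was handled. Against NTC in SL, with no wave term, a replicate block or p21 and p31 as the second set, Cox6c was at -0.10 and Ndufab1 at -0.057, and Ndufab1 against SOX2 in SL was at -0.075. Against SOX2 in 2i, with the block and with p21 and p31 as the second set, Ndufa4 was at -0.26 and -0.25, Ndufab1 at -0.38 and -0.37, Ndufb11 at -0.073 and -0.049 and Uqcr10 at -0.062 and -0.013. With the block Ndufb11 against NTC in 2i was at -0.061. The cause was not tested.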

Other observations

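Mitochondrial ribosomal protein genes, which translate the subunits coded in the mitochondrial genome, were more often lower than higher in 2i against SL in the rescue lines. Of 78 measured, 6 were higher and 16 lower in miniSOX, 4 and 29 in FNV, 11 and 27 in SOX2 and 8 and 12 in NTC cells by limma, with medians of -0.11, -0.29, -0.17 and 0.04. The shares were 7.69% and 20.5%, 5.13% and 37.2%, 14.1% and 34.6%, and 10.3% and 15.4%, where 17.0% and 16.4%, 20.3% and 20.4%, 22.3% and 22.5%, and 11.9% and 12.8% of all genes were higher and lower. Among the respiratory chain genes the higher ones were the more frequent in all of these lines but FNV. Sucla2, a subunit of succinyl-CoA synthetase in the citric acid cycle, was higher in 2i than in SL by 2.06 ± 0.17 (SE; limma adjusted p = 4.18e-07) in miniSOX, 1.21 ± 0.15 (1.91e-05) in FNV, 1.42 ± 0.15 (4.53e-06) in SOX2 and 0.85 ± 0.16 (0.0012) in NTC cells. Lin28a, an RNA-binding protein counted among the regulators of mitochondrial biogenesis, was lower by -4.71 ± 0.40 (limma adjusted p = 7.33e-07), -6.01 ± 0.37 (2.01e-08), -6.51 ± 0.37 (1.25e-08) and -3.42 ± 0.38 (1.79e-05) in the same lines.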
